A study of Mus musculus with 12 samples.

Results

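The germline variable (V) segments of the immunoglobulin loci were followed through total RNA of the mouse meninges, the membranes around the brain. The members were the count rows named Ighv (heavy chain), Igkv (kappa light chain) or Iglv (lambda light chain) plus a digit, with 20 or more counts summed over 12 libraries. This rule kept 124 of 346 V rows, out of 47747 gene symbols. They were 55 of 183 heavy, 66 of 160 kappa and 3 of 3 lambda rows, and they held 24306 of 24981 V counts (97.3%). The members were thus selected on summed counts, with no use of the groups. Just inside the limit were Ighv1-58 with 20 and Igkv12-89 and Ighv5-9 with 21 counts each. Just outside were Igkv1-88, Ighv14-3, Ighv1-34 and Ighv1-62-2 with 19 counts each. Of the other V rows, 123 had no count in any library.

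Each library came from the meninges of 1 C57bl/6 mouse. The 6 DSS mice drank 2% dextran sulfate sodium (DSS), a sulfated sugar polymer widely given to rodents to induce colitis, for 5 days and then water; the 6 Control mice are labelled as controls, with no other treatment named. Mice were culled after 6 days, with no start of that count given. Mice are called by group and the replicate number of the labels, such as Control 1. Libraries held 9312788 to 41869997 counts.

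A B cell builds its heavy and light chain genes by joining 1 V segment to shorter segments and transcribing them together with a constant region. Offspring of a B cell keep that choice. Plasma cells, the antibody-secreting descendants, carry far more immunoglobulin RNA than resting B cells, so that a small number of them can set which V segments lead in a tissue. The dura, the outer meningeal layer, is known to hold plasma cells, many of them producing immunoglobulin A, and B cells supplied in part from the skull marrow.

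The source label reads colon, while titles and the extraction protocol name meninges. The summed level of 4 fibroblast genes lay between 9011 and 18234 CPM (counts scaled to library size after TMM normalization) over the 12 libraries, that of 5 colon epithelium genes between 4.58 and 7.34 CPM, and Cdx2 was at 0 counts in all. In Control 2, 61.3% of the counts lay on ribosomal RNA rows; elsewhere they were 1.13% to 10.5%.

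The V segments lie in 3 clusters on mm10/GRCm38, as annotated in GENCODE M21. The heavy members span bases 113588267 to 115953005 of chromosome 12, the kappa members 67555497 to 70704177 of chromosome 6 and the lambda members 19085017 to 19260859 of chromosome 16. GENCODE calls 122 members functional V genes and 2 pseudogenes. Each segment has 338 to 501 exonic bases (median 361), so counts of different segments cover similar lengths. The same segment led in 12 of 12 libraries when counts were taken per exonic base. The segments of a family are near copies, and reads that fit several copies may be dropped or split by the counting, whose setting is not given in the sources used here. In the GENCODE transcripts of the V rows, a median of 75.4% of a member's 50-base words and of 100% of its 100-base words occurred in no other V row. In 20 members fewer than 50% of the 50-base words were its own.

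Sequences are shown for 4 pairs of near copies, each with a segment that led a library, since their likeness bears on how far a count can be given to 1 row. Each is a stretch of 150 bases of the annotated coding sequence at its 3′ end, or for Igkv4-55 just before it, (GENCODE M21 transcripts, GRCm38), where the V segment is joined to the next segment and codes for part of an antigen contact loop. Capitals mark the bases at which the members of a pair differ. Iglv1 (chr16:19085017-19085500, minus strand) and Iglv2 (chr16:19260401-19260859, minus strand) differ at 5 of the 150 bases.
Iglv1: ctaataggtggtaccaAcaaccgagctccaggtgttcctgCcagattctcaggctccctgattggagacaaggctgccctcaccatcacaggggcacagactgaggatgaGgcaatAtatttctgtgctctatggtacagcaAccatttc
Iglv2: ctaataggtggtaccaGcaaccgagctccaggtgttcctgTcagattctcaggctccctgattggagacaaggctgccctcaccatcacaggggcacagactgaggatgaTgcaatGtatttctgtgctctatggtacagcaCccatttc
Igkv10-94 (chr6:68704508-68704978, minus strand) and Igkv10-96 (chr6:68631963-68632442, minus strand) differ at 14 of the 150 bases.
Igkv10-94: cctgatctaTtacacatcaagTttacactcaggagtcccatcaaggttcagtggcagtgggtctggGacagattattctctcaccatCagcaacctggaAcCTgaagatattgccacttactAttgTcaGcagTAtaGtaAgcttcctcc
Igkv10-96: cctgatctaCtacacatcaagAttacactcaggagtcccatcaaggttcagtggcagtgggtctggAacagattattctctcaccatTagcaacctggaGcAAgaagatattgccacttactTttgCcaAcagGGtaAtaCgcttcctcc
Igkv3-2 (chr6:70698449-70699067, plus strand) and Igkv3-4 (chr6:70671788-70672377, plus strand) differ at 15 of the 150 bases.
Igkv3-2: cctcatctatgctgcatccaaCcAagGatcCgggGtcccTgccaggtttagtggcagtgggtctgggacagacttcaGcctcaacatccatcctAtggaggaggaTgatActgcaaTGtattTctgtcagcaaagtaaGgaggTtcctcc
Igkv3-4: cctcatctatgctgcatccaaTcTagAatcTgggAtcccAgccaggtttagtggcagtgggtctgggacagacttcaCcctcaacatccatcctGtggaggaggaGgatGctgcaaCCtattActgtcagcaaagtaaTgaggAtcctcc
Igkv4-55 (chr6:69607275-69607828, minus strand) and Igkv4-70 (chr6:69267888-69268443, minus strand) differ at 12 of the 150 bases, and 46.7% and 36.1% of their 50-base words were their own.
Igkv4-55: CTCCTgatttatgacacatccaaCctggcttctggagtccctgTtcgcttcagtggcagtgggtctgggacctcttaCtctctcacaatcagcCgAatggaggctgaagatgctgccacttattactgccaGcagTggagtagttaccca
Igkv4-70: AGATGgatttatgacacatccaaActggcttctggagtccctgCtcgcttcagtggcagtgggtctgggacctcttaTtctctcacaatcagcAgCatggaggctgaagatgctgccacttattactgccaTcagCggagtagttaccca
Igkv15-103 (chr6:68437440-68437925, plus strand), all of whose 50-base words were its own, is shown because its counts lay mostly in controls.
Igkv15-103: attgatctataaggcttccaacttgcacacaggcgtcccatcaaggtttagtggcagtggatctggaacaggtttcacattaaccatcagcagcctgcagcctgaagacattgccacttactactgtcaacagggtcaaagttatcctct

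The V segments together took a very small share of the RNA, and that share varied more between mice than between groups. In controls 173 to 4880 counts per library fell on the members (median 831) and in DSS mice 261 to 8248 (median 1006). As a percent of all counts this was 0.000617 to 0.0122 in controls and 0.00200 to 0.0341 in DSS mice, with means of 0.00570 ± 0.00496 and 0.0101 ± 0.0126 (SD, n = 6 each; exact permutation test, two-sided, p = 0.498, adjusted over 19 library measures p = 0.913). On the CPM scale the V level was 14.5, 37.2 and 122 (lowest, median, highest) in controls and 19.2, 37.8 and 330 in DSS mice. The groups overlapped over nearly their whole range, and the highest value was that of DSS 1. Without DSS 1 the difference of means, DSS minus Control, changed from 0.00442 to -0.000387 percentage points. In bulk tissue, fewer cells and less RNA per cell cannot be told apart. Control 2 had the lowest percent of all libraries, and its share of counts outside ribosomal RNA rows was 0.00160%.

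**Figure D1:**
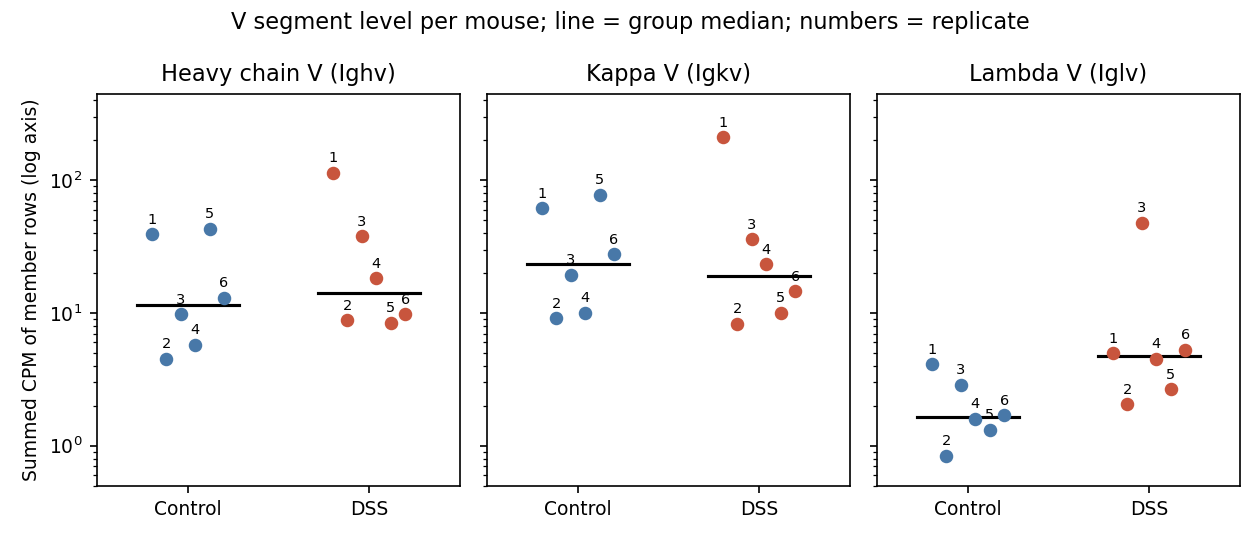
Summed CPM of the member rows of each V cluster (log axis) in each mouse, with the group median as a line and the replicate number beside each point. Heavy and kappa rows overlap between the groups, with DSS 1 highest at 114 and 211 CPM. Lambda rows lie between 0.838 and 4.10 CPM in controls and between 2.06 and 47.7 CPM in DSS mice.

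Heavy V rows made up 30.5% to 37.3% of V counts in controls and 31.2% to 46.0% in DSS mice (exact permutation test, p = 0.108, adjusted p = 0.685). Their level was 11.4 CPM at the median in controls and 14.0 CPM in DSS mice. The kappa level was 23.5 CPM at the median in controls and 18.9 CPM in DSS mice. By percent of all counts, heavy rows gave p = 0.504 and kappa rows p = 0.812 in exact permutation tests (adjusted p = 0.913 each). For comparison, the 170 T cell receptor V rows together had 20 to 147 counts per library.

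V counts followed the constant regions of antibodies across the mice. A joined V segment and its constant region are parts of the same transcript. A close relation was therefore given beforehand, and its p-values are a check of the counts and no separate finding. The log2 V level had a Pearson r of 0.991 with the log2 summed constant region level over 12 mice (permutation p = 1e-05, the smallest that 100000 permutations can give; Spearman rho 0.986, p = 1e-05; adjusted over 4 relations p = 4e-05 each). For Jchain, whose product joins the antibody chains of dimeric IgA and pentameric IgM and which marks plasma cells, r was 0.968 (permutation p = 3e-05, adjusted p = 6e-05) and rho 0.846 (p = 0.00091, adjusted p = 0.00137). Without DSS 1 and Control 5, the mice farthest from the median, r was 0.984 and 0.934. Within controls r was 0.994 and 0.932, and within DSS mice 0.994 and 0.990. The mean level of 12 B lymphocyte genes gave an r of 0.242 (permutation p = 0.455, adjusted p = 0.455; rho 0.0839, p = 0.801), which was 0.288 without the same mice, and 0.0802 within controls and 0.425 within DSS mice. The mean of the other 11 plasma cell genes, a relation added after that of Jchain was known, gave an r of 0.828 (permutation p = 0.00067, adjusted p = 0.000893) and a rho of 0.832 (p = 0.00103, adjusted p = 0.00137). It was 0.801 without DSS 1 and Control 5, 0.690 within controls (exact permutation p = 0.136) and 0.910 within DSS mice (exact permutation p = 0.0153). Single genes of that list differed: in DSS 1, the library with the highest V level, Tnfrsf17 was at 0.400 CPM, the lowest of the 12 libraries, and Sdc1 at 38.1 CPM and Prdm1 at 4.00 CPM lay below all controls. Among all tested rows outside the immunoglobulin loci, Jchain had the highest r with the V level, followed by Mon1b, whose product activates an endosomal GTPase, at 0.850. Mir5130, Gm24339 and Gm26220 came next at 0.838, 0.837 and 0.833, as a description over 12 mice.

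**Figure D2:**
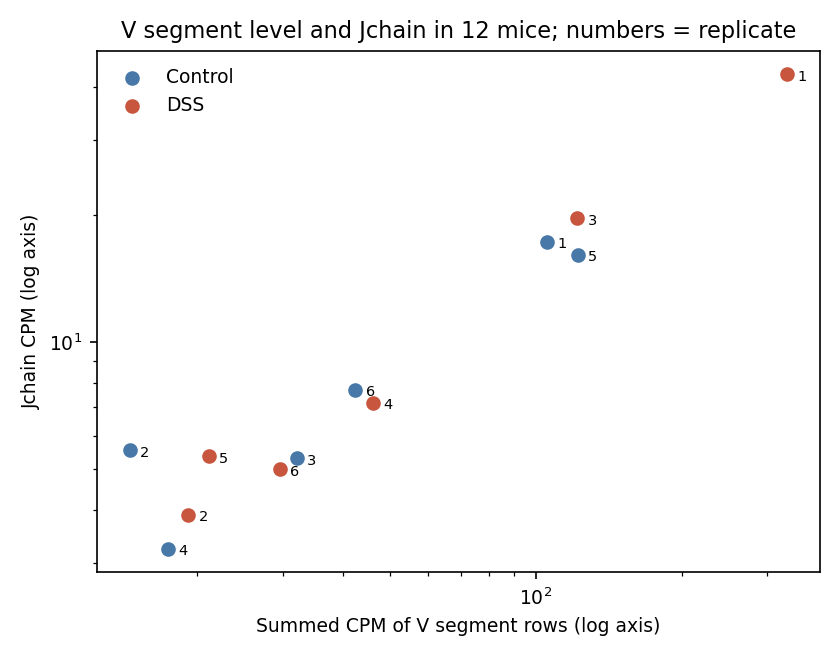
Summed CPM of V segment rows against Jchain CPM in the 12 mice (both axes logarithmic), with the replicate number beside each point. DSS 1 stands highest on both axes, at 330 and 42.9 CPM, and Control 1, Control 5 and DSS 3 lie next to each other below it.

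Kappa V counts per count of Igkc, the kappa constant region gene, lay in a narrow band of 0.546 to 0.861 over all libraries, with a control mean of 0.729 ± 0.0839 and a DSS mean of 0.683 ± 0.0900 (SD, n = 6 in each group). Heavy V counts per count of all heavy constant regions lay between 0.0672 and 0.192. The IgA constant gene Igha was at 3.19 to 14.8 CPM in controls and 7.71 to 57.7 CPM in DSS mice, and Ighm, the IgM constant gene, at 46.9 to 234 and 36.9 to 535 CPM. Of 11 tested constant region genes 1 rose, Igha, and none fell (edgeR quasi-likelihood test, log2 fold change 1.70, adjusted p = 0.0426; 3.68% of all tested rows were called higher in DSS mice). The call for Igha was lost in 9 of 12 fits that left out 1 mouse, where the adjusted p ranged from 0.0107 to 0.0955. Marker genes of the cells that transcribe V segments were tested alongside. None of 12 plasma cell genes and none of 4 tested B precursor and recombination genes were called by edgeR; 1 and 0 of them had an unadjusted p under 0.05. The same was so of 3 of 12 B lymphocyte and 5 of 11 constant region genes, and of 3525 of all 18593 tested rows. Of 12 tested B lymphocyte genes 1 rose, Cd37, a tetraspanin gene that other leukocytes express as well. The summed plasma cell list lay between 163 and 221 CPM in controls and between 173 and 260 CPM in DSS mice. Most of that sum was Xbp1, at 91.9 to 153 CPM over the libraries, and Sdc1, at 27.9 to 55.3 CPM. Mzb1 was at 0.210 to 1.96 CPM and Tnfrsf17 at 0.400 to 1.04 CPM, so the sum says little about such low genes. The 14 B lymphocyte genes summed to 71.6 to 89.6 CPM in controls and to 59.7 to 86.4 CPM in DSS mice, and their levels did not move one way. Ms4a1, which encodes the B cell surface protein CD20, was at 0.105 to 0.287 CPM in DSS 4, DSS 5 and DSS 6. Those mice, DSS 1 and DSS 2 lay below the lowest control, and DSS 3 lay within the control range. Cd22, an inhibitory receptor gene of B cells, was at 1.26 to 2.63 CPM in controls and 2.20 to 4.15 CPM in DSS mice. The part of these cells in the V values was not tested.

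Each library drew on many segments, and more segments were seen where there were more V counts. In controls 42 to 92 members had at least 1 count (69.7 ± 18.7, SD, n = 6) and in DSS mice 47 to 106 (77.3 ± 21.9; exact permutation test, p = 0.541, adjusted p = 0.913). At an equal draw of 173 V counts, the total of Control 2, the expected number of members seen was 27.1 to 60.3 in controls and 39.5 to 48.1 in DSS mice. The means were 39.3 ± 11.7 and 43.5 ± 3.57 (exact permutation test, p = 0.426, adjusted p = 0.913). Control 4 had the most members in the equal draw at 60.3 and Control 5 and Control 1 the fewest at 27.1 and 30.4, so that DSS mice fell within the range of controls. Without Control 4 the mean difference was 8.51 members (adjusted p = 0.123; main difference 4.24). A segment with no count in a library can still hold up to 3 counts' worth of usage, which is 1.73% of V counts in Control 2 and 0.0364% in DSS 1. Such limits and all intervals given here cover counting error only, since sequenced fragments are not independent molecules.

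A few segments took a large part of the V counts in most libraries, and the groups overlapped in each measure of this. The leading segment held 8.36% to 39.5% of V counts in controls and 10.4% to 35.4% in DSS mice (means 17.6 ± 11.1 and 18.6 ± 8.87, SD over 6 mice each; exact permutation test, p = 0.797). The top 5 segments held 29.8% to 73.3% in controls and 35.3% to 56.2% in DSS mice (p = 0.565), and the top 10 held 44.8% to 86.1% and 52.9% to 70.9% (p = 0.323, exact permutation tests). The inverse Simpson index, the number of equally used segments that would give the same chance that a random pair of counts falls on 1 segment, was 16.6 ± 10.3 in controls and 15.9 ± 6.33 in DSS mice (exact permutation p = 0.903). By Shannon entropy the effective number was 24.8 ± 12.5 and 28.3 ± 7.46 (exact permutation p = 0.578). The adjusted p was 0.913 for each of these measures. The Shannon number and the top shares can move with the V counts of a library, which ran from 173 to 8248. The Simpson index was computed from pairs of counts, and depth does not move it in expectation. The heavy rows alone had an inverse Simpson index of 2.89 to 17.5 in controls and 6.08 to 13.1 in DSS mice, and the kappa rows 2.48 to 22.1 and 5.56 to 12.97. Controls thus held both the most concentrated library, Control 5, and the most even, Control 4.

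**Figure D3:**
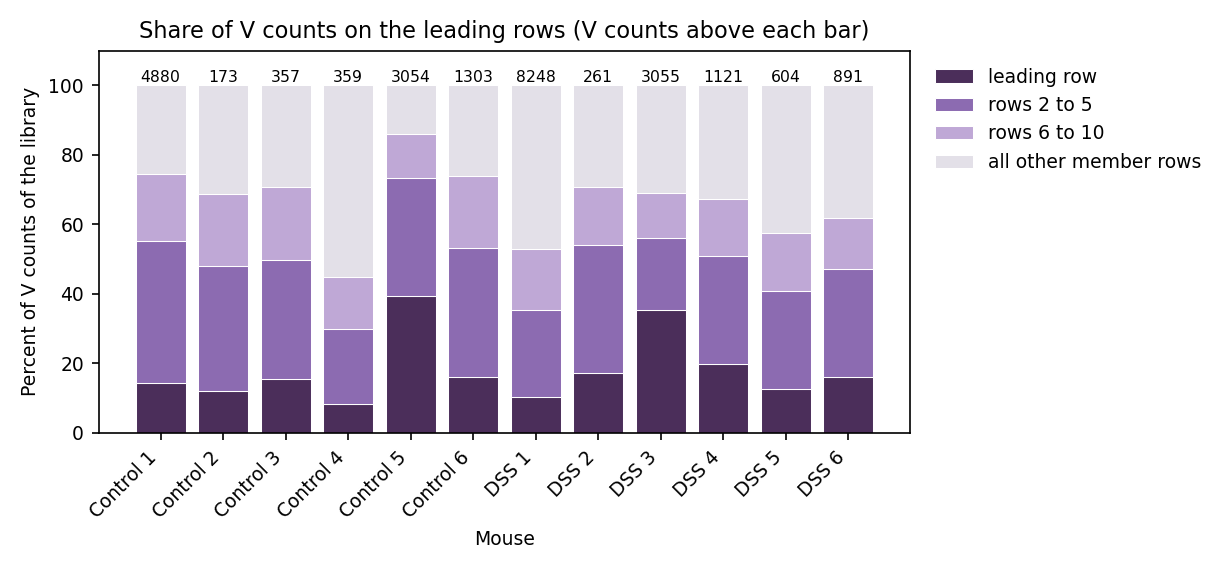
Percent of V counts on the leading member row, rows 2 to 5, rows 6 to 10 and all other members in each mouse, with the number of V counts above each bar. The leading row takes 39.5% in Control 5 and 35.4% in DSS 3, and 8.36% in Control 4.

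The segments that led differed from mouse to mouse. Over 12 libraries 9 segments took the lead, 10 led among heavy rows and 10 among kappa rows. The 60 places in the top 5 of the libraries were held by 42 segments, of which 32 stood in the top 5 of 1 library. Of the 66 pairs of libraries 33 shared no top 5 segment, and no pair shared more than 3. In 65 of 124 members, 1 library held over 50% of the usage summed over libraries (usage being percent of V counts, so that each library weighs the same), against 8.33% for an even spread. Igkv9-123 was the extreme, with all its 35 counts in DSS 3. By contrast, 5 members had counts in all 12 libraries, namely Iglv1, Igkv10-96, Igkv1-117, Igkv1-110 and Igkv14-111. Only 1 member was seen in 1 library, 122 were seen in both groups, and the others, Igkv9-123 and Ighv1-59, were seen in DSS mice alone. Both passed the 20-count limit through DSS counts alone, so their absence from controls is no result about the groups. DSS 1 and Control 1 held 13128 of the 24306 counts (54.0%), and 34 members would have missed the 20-count limit without them.

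No difference between the groups was detected in the usage profiles. The Bray-Curtis distance of usage, 0 for identical and 1 for disjoint profiles, averaged 0.759 between the groups and 0.755 within them (exact permutation test over the splits of the mice, one-sided, p = 0.383). Over all pairs it ranged from 0.526 to 0.898 with a median of 0.779. The mean was 0.782 among controls and 0.729 among DSS mice. The closest pair was Control 3 and DSS 2, and the most distant Control 5 and Control 6.

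**Figure D4:**
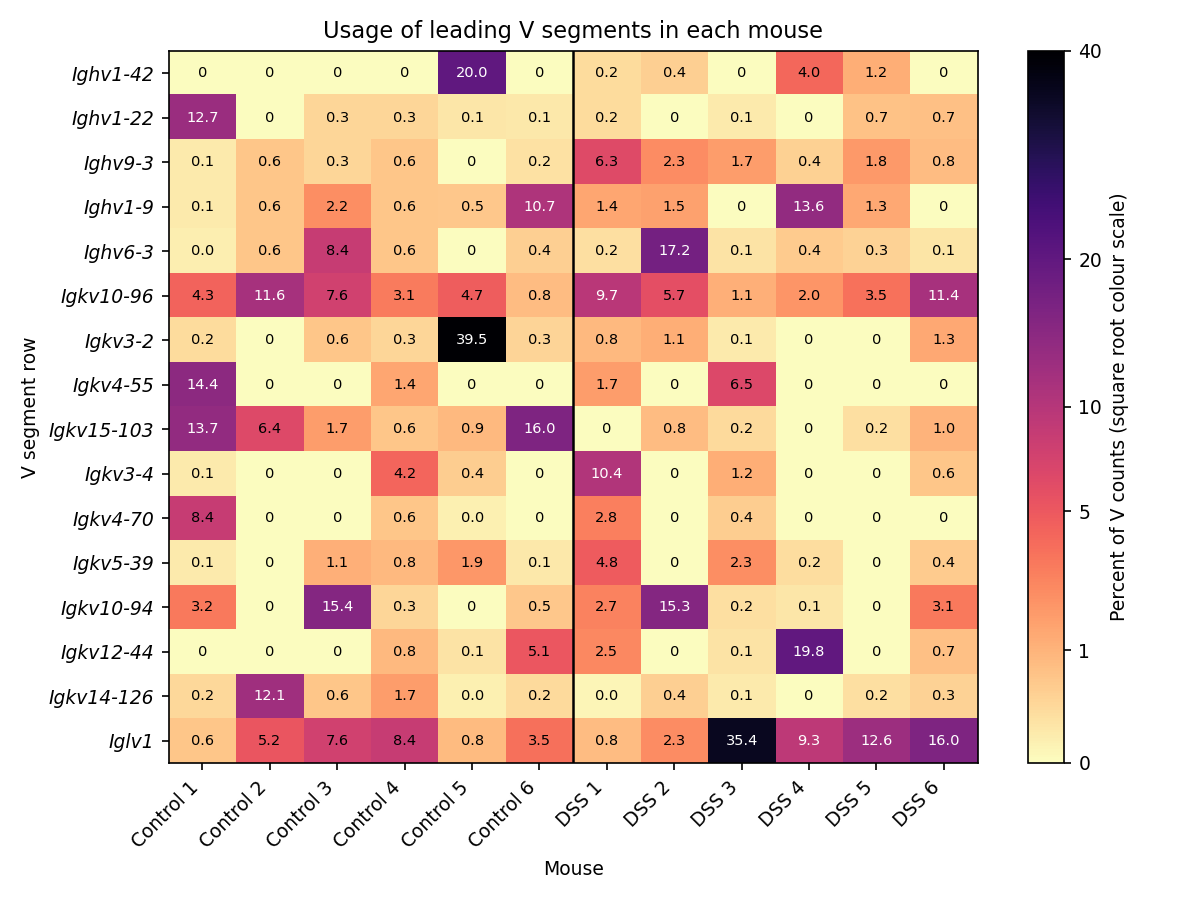
Percent of V counts (square root colour scale, value printed in each cell) on leading members in each mouse, with controls left of the line and DSS mice right of it. Dark cells stand mostly alone in their row, as for Igkv3-2 at 39.5% in Control 5, while Igkv10-96 and Iglv1 have counts in every mouse.

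Among heavy V segments, members of the Ighv1 family, the largest of the mouse heavy locus, held 12.6% to 34.1% of V counts in controls and 10.4% to 29.0% in DSS mice, through 30 members. They led the heavy rows in 7 of 12 libraries. Ighv1-42 had 611 counts in Control 5, 56.8% of its heavy V counts (95% Clopper-Pearson interval 53.8% to 59.8%). No other control had a count of it, and DSS mice had 0 to 45. Ighv1-22 had 620 counts in Control 1 (interval 31.9% to 36.3% of the heavy V counts there) and 0 to 17 in every other library. Ighv1-9 led in Control 6 with 139 counts and in DSS 4 with 152, and DSS 1 had 115, while the 9 remaining libraries had 0 to 16. Ighv6-3 led in Control 3 with 30 counts (27.5% of heavy V counts, interval 19.4% to 36.9%) and in DSS 2 with 45 (37.5%, interval 28.8% to 46.8%). It had 0 to 13 counts elsewhere. Ighv1-9 and Ighv6-3 thus each led in a control and in a DSS mouse, whereas Ighv1-42 and Ighv1-22 led in a control alone.

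Ighv9-3, which led the heavy rows in DSS 1, was the 1 member of 124 whose groups did not overlap in CPM (of all rows with 20 or more summed counts, 2.46% did not overlap). Its counts were 0 to 3 in controls and 4 to 523 in DSS mice, with 523 in DSS 1, 52 in DSS 3 and 4 to 11 in the other 4. On the CPM scale all 6 DSS mice lay above the highest control, and DSS 1 held most of the counts. It reached the limit of 20 summed counts only through DSS mice, and it did not pass the filter on low counts of the main test. Along the heavy locus, the count-weighted median distance of the V segments used from the J segments, to which V segments are joined, was 0.962 to 1.88 Mb in controls and 1.00 to 1.73 Mb in DSS mice. The median of the members themselves was 1.32 Mb.

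Among kappa V segments, several leaders had nearly all their counts in 1 to 3 mice. Igkv3-2 had 1206 counts in Control 5, 62.0% of its kappa V counts (95% Clopper-Pearson interval 59.8% to 64.2%) and 48.2 CPM. No other control had more than 10 counts; DSS 1 had 70 and the other DSS mice 0 to 12. Igkv3-4, its close copy, led in DSS 1 with 858 counts (16.3% of kappa V counts, interval 15.3% to 17.3%) and had 0 to 36 elsewhere. Igkv4-55 led in Control 1 with 702 counts and among kappa rows in DSS 3 with 200, and DSS 1 had 138. It had 5 counts in Control 4 and 0 in the 8 other libraries. Igkv4-70, which shares long stretches with it, had 409 counts in Control 1, 235 in DSS 1 and 13 in DSS 3, and 0 to 2 elsewhere, so the same 3 mice were highest for both. Igkv12-44 had 222 counts in DSS 4, 39.2% of the kappa V counts there (interval 35.2% to 43.4%), 205 in DSS 1 and 67 in Control 6, against 0 to 6 in the rest. The mice with the most Igkv12-44 were thus the same 3 as for Ighv1-9. The heavy and kappa leaders Ighv6-3 and Igkv10-94 coincided in Control 3 and DSS 2, where Igkv10-94 had 55 and 40 counts. In other mice they did not coincide: Igkv10-94 had its most counts in DSS 1 (223) and Control 1 (154), and 28 in DSS 6, where Ighv6-3 had 13, 2 and 1. Bulk counts do not show which heavy and light chains were made by the same cell.

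Igkv10-96 was a leading kappa segment with counts in every mouse. Its level was 0.325, 2.05 and 5.72 CPM (lowest, median, highest) in controls and 0.735, 1.21 and 31.9 CPM in DSS mice, where the highest value was that of DSS 1. It stood in the top 5 of 6 libraries, 3 in each group. Its log2 fold change was 1.35 ± 0.96 SE (edgeR quasi-likelihood test, adjusted p = 0.500), and -0.77 without DSS 1. The groups overlapped.

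Igkv15-103 lay mostly in controls. Its counts were 670, 209, 26, 11, 6 and 2 in Control 1, 6, 5, 2, 3 and 4, and 9, 7, 2, 1, 0 and 0 in DSS 6, 3, 2, 5, 1 and 4. It stood in the top 5 of 3 controls and of no DSS mouse, and 3 DSS mice lay below the lowest control on the CPM scale, so the groups overlapped at their low ends. Igkv14-126 led in Control 2 with 21 of 173 V counts (12.1%, interval 7.67% to 18.0%), level with Ighv1-82. Counts were 1 to 12 in the 5 other controls and at most 3 in DSS mice. Igkv14-126 with Ighv11-2 is a chain pair known from B-1 cells that bind phosphatidylcholine. Ighv11-2, a choice made once its values were known, had 8 counts in Control 2 and in Control 4, 0 to 5 in the remaining controls and at most 4 in DSS mice. Igkv14-126 was called lower in DSS mice by DESeq2 (log2 fold change -2.93, adjusted p = 0.0294) and not by edgeR without the filter (adjusted p = 0.120).

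Lambda V segments, of which the mouse has few, gave the lowest unadjusted p of the 19 library measures. Lambda rows made up 1.67%, 7.31% and 13.8% (lowest, median, highest) of light chain V counts in controls and 2.32%, 20.4% and 56.9% in DSS mice. Of 6 DSS mice 5 lay above every control, and DSS 1 lay below 5 of 6. The means were 8.12 ± 4.59% and 23.8 ± 18.2% (SD, n = 6 each; exact permutation test, p = 0.0325, adjusted p = 0.308). As a percent of all counts, lambda rows were at 0.000218 ± 0.000153 in controls and 0.00125 ± 0.00205 in DSS mice (exact permutation test, p = 0.0303, adjusted p = 0.308). Both differences missed the threshold after adjustment over 19 measures. Without DSS 1 the difference in the light chain share was 20.2 percentage points (adjusted p = 0.0411), and without DSS 3, the highest mouse, it was 9.33 (adjusted p = 0.398), exact permutation tests over the remaining mice.

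Iglv1, the lambda V segment used most in laboratory mice, led the lambda rows in 10 of 12 libraries. It was the member with the most counts (1635), and led 3 DSS libraries and 1 control library. Its level was 0.582, 1.23 and 2.43 CPM (lowest, median, highest) in controls and 0.440, 3.46 and 43.1 CPM in DSS mice. Of 6 DSS mice 5 lay above the highest control, by little in DSS 1 at 2.48 CPM, and DSS 2 lay below the lowest. In DSS 3 it had 1080 counts, 35.4% of all V counts (95% Clopper-Pearson interval 33.7% to 37.1%). In DSS 4, DSS 5 and DSS 6 it had 104, 76 and 143. The log2 fold change was 2.97 ± 0.86 SE with an adjusted p of 0.0629 in edgeR's quasi-likelihood test. Without DSS 3 it was 1.25 (adjusted p = 0.163), and it passed the threshold without DSS 2 (3.23, adjusted p = 0.0223), in the edgeR fit. DESeq2 gave 2.92 (adjusted p = 0.0157).

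Iglv2, which pairs by its place in the locus with the constant gene Iglc2, had another distribution. It had 158 counts in Control 1, 55 in DSS 1, 33 in DSS 3 and 22 in DSS 2, and 0 to 10 in the other libraries. Iglc2 had 264 counts in Control 1 and 189, 135 and 40 in DSS 3, DSS 1 and DSS 2, against 2 to 35 elsewhere, so the same 4 libraries were highest in both. Iglv3 had 84 counts in DSS 3 and 0 to 8 in the others. The constant genes that Iglv1 is joined to, Iglc1 and Iglc3, had 895 and 618 counts in DSS 3. In DSS 6 they had 170 and 7 counts and in DSS 4 they had 14 and 118.

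**Figure D5:**
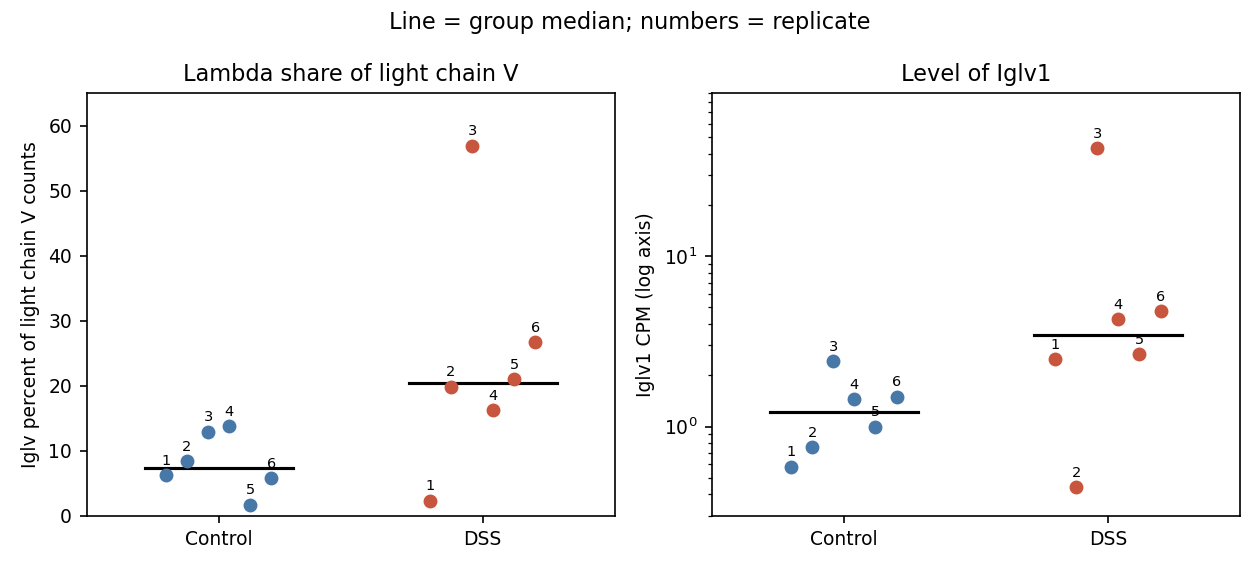
Lambda rows as a percent of light chain V counts (left) and Iglv1 CPM (right, log axis) in each mouse, with the group median as a line and the replicate number beside each point. On the left DSS 3 stands at 56.9% and DSS 1 at 2.32%. On the right DSS 2 at 0.440 CPM lies below all controls.

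Few V segments could be tested one by one in the main edgeR fit, and calls depended on the fit. Of 124 members 4 passed the filter on low counts, since most members are near 0 in most mice: Iglv1, Igkv10-96, Igkv1-117 and Igkv1-110. None of these 4 was called by edgeR's quasi-likelihood test at an adjusted p of 0.05, where 4.94% of all 18593 tested rows were called, and 1 of the 4, Iglv1, had an unadjusted p under 0.05. For Igkv1-117 the log2 fold change was 0.34 ± 0.72 SE (edgeR adjusted p = 0.867), and for Igkv1-110 it was 0.98 ± 0.89 SE (edgeR adjusted p = 0.620). The median log2 fold change of the 4 was 1.17, against -0.02 over all tested rows. Members that a filter on counts keeps are those with counts in several mice, so the 4 do not stand for the rest.

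Without the filter, 5 of 124 members were called by edgeR, where 2.23% of all rows were called. Higher in DSS mice were Ighv9-3 (log2 fold change 5.93, adjusted p = 0.0221), Ighv1-76, Igkv14-100 and Igkv5-48, and Igkv15-103 was lower (-4.96, adjusted p = 0.0136). DESeq2 called 5 of the 39 members to which it gave an adjusted p, where 7.74% of rows were called. These were Iglv1, Ighv1-53 and Igkv5-48, higher in DSS mice, and Igkv15-103 and Igkv14-126, lower. Igkv15-103 and Igkv5-48 were called by both. Apart from Iglv1, each of these called members reached the limit of 20 summed counts only through the group where it was higher. Igkv5-48 had 0 to 6 counts in controls and 4 to 20 in DSS mice, and 5 of the DSS mice exceeded every control in CPM. The fitted fold changes of such segments rest on a few counts in 1 group and are no bounds.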

How the data were processed

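Total RNA of the meninges of 12 mice was sequenced from stranded libraries, per the labels' protocols. CASAVA, FastQC, Trim Galore, HISAT2, featureCounts and mm10 are named in the submitters' processing notes; for their roles and versions, and for annotation, strand and multi-mapping settings, the entry is: not given in the sources used here. Raw counts by symbol stand in one deposited table. The other deposited table gives a signal that was found to be those counts over a single median-of-ratios size factor per library. Table columns were matched to mice through the description in the labels, and 0 columns were left unmatched.

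All 346 V symbols were found in GENCODE M21. Usage is a row's percent of the member counts of its library. Library measures (19) were compared by an exact two-sided permutation test over the 924 splits of the mice (smallest p 0.00216), with Benjamini-Hochberg adjustment over them. Rows in an equal draw are the hypergeometric expectation. Single rows were tested with edgeR 4.0.16 under R 4.3.3: TMM scaling, the filterByExpr filter (minimum count 10, minimum total 15) and the quasi-likelihood F-test with treatment as the only term, adjusted over 18593 rows at 0.05. The prior count for log2 CPM was 2. On data simulated for DSS against Control over 18593 rows, 68.0% of 2-fold and 96.7% of 4-fold changes were called. The changed rows were drawn at random from all tested rows, of which 4 were members. These rates therefore do not tell how often a change in a V segment would be called. DESeq2 1.42.0 was an alternative.

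By rule, named segments are the 10 with most counts, the top segment of each library, members called by edgeR, those next to the count limit and up to 3 leading rows of each cluster. All others were named after their values were seen. Among them are Ighv1-9, Ighv11-2, Ighv1-59, Igkv9-123, Igkv14-111, the other tested members and those called under an alternative. The genes Cd22, Cd37, Tnfrsf17, Sdc1, Prdm1 and Xbp1 were also named after their values were seen. The members, lists and tests were chosen with earlier results of these data known. Each library is a separate mouse in the series design, so p-values rest on the spread among mice. Depth, 173 to 8248 V counts per library, limits what can be seen in single segments.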

Additional observations from a re-analysis of the deposited data

Results flagged for a closer look

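In 8 of the 38 sets of 6 mice checked (19 measures in each group), 1 mouse stood far from the 5 others. The measures overlap, so these are not separate events. The nominal rate of the rule, about 1 of 20 sets, was not checked on skewed values such as the percent of all counts on V segments. It is therefore no baseline for the number of sets flagged. DSS 1 stood apart from the other DSS mice in the percent of all counts on V segments (0.0341), on heavy V segments (0.0118) and on kappa V segments (0.0218). It also had the highest Jchain level (42.9 CPM). DSS 3 stood apart in the percent of all counts on lambda V segments (0.00543), through Iglv1. Control 5 stood apart among controls in the share of its leading segment, Igkv3-2, which was 39.5% of V counts and 62.0% of kappa V counts. Control 4 stood apart in evenness, with an effective number of 48.3 segments by Shannon entropy and of 17.5 heavy segments by the inverse Simpson index, at 359 V counts. The part of library preparation or dissection in these values was not tested.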

How the results depend on the processing

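Alternatives were other limits on summed counts (at least 1 or 100), functional segments alone, other scalings, other detection limits, single clusters, another distance, other count models, each mouse left out in turn and, chosen after the data were seen, counts per exonic base and leaving out Control 2 and DSS 2 together, the libraries with the fewest V counts. None of the library measures rerun passed its threshold, apart from the lambda share of light chain V counts without DSS 1; with each mouse left out in turn this difference ranged from 9.33 to 20.2 percentage points (adjusted p of 0.0411 at the lowest). The difference in the number of segments in an equal draw kept its direction in all 20 alternatives, 3 of which counted segments without the equal draw. The difference in V share ranged from -0.000387 to 0.00605 percentage points with a mouse left out. The difference in the inverse Simpson index was -0.63 in the main setting and changed sign with a limit of 100 counts (0.0854), with counts per exonic base (0.0915), with heavy rows alone (1.66) and kappa rows alone (0.648), and ranged from -2.93 to 3.19 with a mouse left out. The difference in the leading share was 0.936 percentage points, -8.37 with heavy rows alone, -1.83 with kappa rows alone, and -2.31 to 5.33 with a mouse left out. The between-group excess in usage distance was 0.00415, -0.0123 with a limit of 100 counts, -0.000327 without Control 2 and DSS 2, and -0.00685 to 0.0206 with a mouse left out. The cause of these changes was not tested. The number of called members was 0 in the main fit, 5 by DESeq2, 5 without the filter, 1 without Control 2 and DSS 2, and 0 to 1 with a mouse left out, the 1 being Iglv1. The log2 fold change of Igkv10-96 ranged from -0.77 to 1.77 with a mouse left out.

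Same-numbered mice of the groups share only a number: correlations of their deviations from group means lay between -0.189 and 0.154, and 0 of 6 controls correlated best with its own number. With the replicate number as a block, edgeR called 1 member (Iglv1, log2 fold change 1.94, adjusted p = 0.0484) and 708 rows against 919; the call for Igha was lost (adjusted p = 0.0813). With a mouse left out, edgeR called 538 to 1379 rows. An exact sign-flip test of the paired differences changed no call among the library measures (lambda share, 15.7 percentage points, p = 0.0938). The smallest p that the 64 sign flips of 6 pairs can give is 0.0313. A single measure could thus not pass after adjustment over 19 measures, so this test is no check of the calls.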
